A study of Mus musculus with 8 samples.

Results

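The genes described here are 36 genes of protein folding and quality control in the endoplasmic reticulum (ER) and of the unfolded protein response, chosen by name as a fixed list and followed through cultured mouse cardiac fibroblasts. All 36 were found by symbol among the 54532 genes of the count table, and all 36 passed the expression filter that left 14723 genes for testing. The cells were cardiac fibroblasts of the C57BL/6 strain at passage 2. One group received a plasmid with murine Thbs4 under the name pAAV.CMV.SV40.THBS4-HA.SV40(polyA), which carries an HA tag and the CMV promoter in its name, and is called the TSP-4 group below. The controls received pAAV-CA, an empty plasmid, and their titles call them non-stimulated. Both groups then had 12 h of standard medium and 24 h without serum, so serum deprivation is common to them. Each group has 4 libraries, lettered A to D in the titles, and the labels do not say whether a letter is an animal, a culture or a day. The p-values therefore measure the spread between these libraries, which may be technical. The plasmids are different constructs, and counts from a whole culture cannot give the share of cells that took up a plasmid.

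The ER folds secreted and membrane proteins with the help of the HSP70-type chaperone BiP, lectin chaperones and disulfide isomerases, and it sends proteins that fail to fold back to the cytosol for degradation. When unfolded protein builds up, the sensors ATF6, IRE1 and PERK raise the transcription of chaperone and degradation genes and lower protein synthesis. Fibroblasts secrete collagen and other matrix proteins in bulk and depend on this machinery. Thrombospondin-4 (TSP-4), the product of Thbs4, is a matricellular protein that has been reported to bind the ER-luminal part of ATF6, which is background and not a result of these libraries. Cleavage of ATF6, splicing of Xbp1 mRNA by IRE1 and phosphorylation by PERK are not visible in counts per gene. The measured quantity is the amount of each mRNA relative to all others.

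ATF6, together with the CCAAT-binding factor NF-Y, acts through the ER stress response element (ERSE), which reads CCAAT, 9 bases of any kind and then CCACG. Promoters of 31 of the 36 genes were matched in the RefSeq promoter table (build GRCm38.p6), and 250 bases before each gene start were searched on both strands. The full ERSE was present for 10 of these 31 genes (32.3%). It was present for 35 of all 27025 genes (0.13%), these 10 included, and in 37 of all 32851 promoters of the same length (0.113%). The shorter form that ends in CCAC, which every full match also contains, was found for 14 of 31 genes (45.2%). It was found for 101 of all genes (0.374%) and in 105 promoters (0.32%). The list was chosen to hold genes of the unfolded protein response, so these shares are a description and not a test. The sequences below show full ERSE matches in the promoters that hold them, at differing distances from the gene start. Each is written on the strand of the gene, with the element in capitals and up to 20 bases on each side. Where the capitals start with CGTGG, the element reads on the other strand. Around the Hspa5 element the GENCODE M21 annotation has an exon of a longer Hspa5 transcript, so the element is given there alone.
Hspa5 (chr2:34772025-34772043, plus strand): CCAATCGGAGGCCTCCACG
Hsp90b1, far element (chr10:86705618-86705676, minus strand): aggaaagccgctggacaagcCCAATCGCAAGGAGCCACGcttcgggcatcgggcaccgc
Hsp90b1, near element (chr10:86705513-86705571, minus strand): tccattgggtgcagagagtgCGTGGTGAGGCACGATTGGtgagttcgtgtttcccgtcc
Calr (chr8:84847055-84847113, minus strand): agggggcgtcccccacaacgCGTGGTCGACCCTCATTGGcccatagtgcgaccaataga
Canx (chr11:50325780-50325838, minus strand): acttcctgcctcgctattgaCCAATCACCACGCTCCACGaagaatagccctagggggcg
Pdia6 (chr12:17266471-17266529, plus strand): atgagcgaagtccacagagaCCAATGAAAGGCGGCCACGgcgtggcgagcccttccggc
Dnajc3 (chr14:118937807-118937865, plus strand): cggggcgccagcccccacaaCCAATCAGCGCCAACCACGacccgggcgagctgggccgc
Creld2 (chr15:88819500-88819558, plus strand): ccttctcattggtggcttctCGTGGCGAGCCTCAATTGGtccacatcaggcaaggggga
Syvn1 (chr19:6046512-6046570, plus strand): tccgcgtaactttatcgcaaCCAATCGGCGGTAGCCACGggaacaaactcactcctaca

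The elements shown lie between 44 bases (Syvn1) and 212 bases (the far element of Hsp90b1) before the gene start, counted from the first base of the element. Derl3 and Ero1lb were the remaining genes with a full ERSE. The remaining 3 motifs were rare in both sets. The ERSE-II, which reads ATTGG, 1 base of any kind and then CCACG, occurred in the promoter of Herpud1 alone among the 31 genes (3.23%) and in 10 promoters in all (0.0304%). The UPRE core TGACGTG occurred in the Hspa5 promoter alone among the 31 genes (3.23%), against 1.85% of all genes. The cyclic AMP response element TGACGTCA occurred in the Ppp1r15a promoter only, 12 bases before the start (3.23%, against 1.77% of all genes). The Herpud1 and Ppp1r15a windows are shown because these genes return below.
Herpud1 (chr8:94386357-94386407, plus strand): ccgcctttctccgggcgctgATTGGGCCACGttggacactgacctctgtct
Ppp1r15a (chr7:45526269-45526300, minus strand): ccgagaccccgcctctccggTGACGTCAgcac
A match of letters is a description of the sequence and not evidence that a factor is bound.

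The libraries held 17123735 to 22530947 counts. Thbs4 (chromosome 13, 92751590 to 92794818, GENCODE M21, GRCm38) had 38063, 25754, 36630 and 31675 counts in TSP-4 group libraries A to D and 2, 11, 8 and 3 in the control libraries (log2 fold change 12.45, SE 0.34, adjusted p 1.9e-06 in edgeR's quasi-likelihood test), so the libraries carry the gene their labels name. Counts of the plasmid transcript and the chromosomal gene cannot be separated. All 8 fibroblast markers were expressed, with a summed level of 12572 to 18029 CPM (read counts scaled to library size by TMM). Macrophage markers were present at 300.0 to 1698 CPM, while T, B and NK cell markers reached at most 0.295 CPM. In such whole-culture RNA, fewer cells of a type and less RNA per cell cannot be told apart.

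Per length, the 5 most abundant of the 36 mRNAs encode chaperones and a folding enzyme, and the sensors lay far below these 5. The deposited FPKM values are fragments scaled by gene length and library size. Levels compared between genes therefore depend on the length given for each gene. The lectin chaperone calreticulin (Calr) came first at 377 ± 10.6 FPKM in the TSP-4 group and 374 ± 16.6 in controls (SD, n = 4 each, as for all values with ± below). The glycoprotein disulfide isomerase Pdia3 (mean over 8 libraries 267 FPKM) and Hspa5, which encodes BiP (214 ± 9.66 and 218 ± 21.2 FPKM), followed. No library of Calr (at least 351 FPKM) overlapped with one of Pdia3 (at most 291), and none of Pdia3 (at least 249) with one of Hspa5 (at most 233). The ER HSP90 protein Hsp90b1 (152 ± 11.8 and 149 ± 5.01 FPKM) and the membrane lectin calnexin (Canx; 140 ± 9.20 and 138 ± 3.51 FPKM) came next, and their ranges of 136 to 165 and 131 to 152 FPKM overlapped.

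A middle tier between 10 and 100 FPKM held most of the others. It included the disulfide isomerases Pdia4 (mean over 8 libraries 89.4 FPKM) and Pdia6 (77.6), the degradation lectin Os9 (75.5), the translocon subunit Sec61b (46.5), the cysteine-rich protein Creld2 (45.9) and the BiP cofactor Dnajb11 (43.8). The transcription factor Xbp1 stood at 38.0 FPKM, above all 4 sensor genes. Among those, Atf6b reached 20.9 FPKM, Ern1 (IRE1) 15.9, Atf6 10.04 and Eif2ak3 (PERK) 5.43. Within 1 library Atf6b was 1.83 to 2.42 times as abundant per length as Atf6. The lengths given were 2757 bases for Atf6b and 9231 for Atf6. Not scaled by length, Atf6 was the higher, at 93.2 against 58.5 CPM in the TSP-4 group and 93.0 against 57.2 in controls. Only 2 genes lay below 1 FPKM, the oxidase Ero1lb (0.841) and the degradation factor Derl3 (0.507), each a low-level relative of a well expressed gene. Ero1l exceeded Ero1lb 26.3 to 37.2 times per length. Derl1 stood at 65.9 FPKM and Derl2 at 8.15, a ratio of 7.39 to 8.52. Overlapping gene models of Derl2 with Mis12, Manf with Rbm15b and Dcaf1, and Syvn1 with Mrpl49 make the levels of these 3 genes less certain, since the strand setting of the counting is not given.

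**Figure D1:**
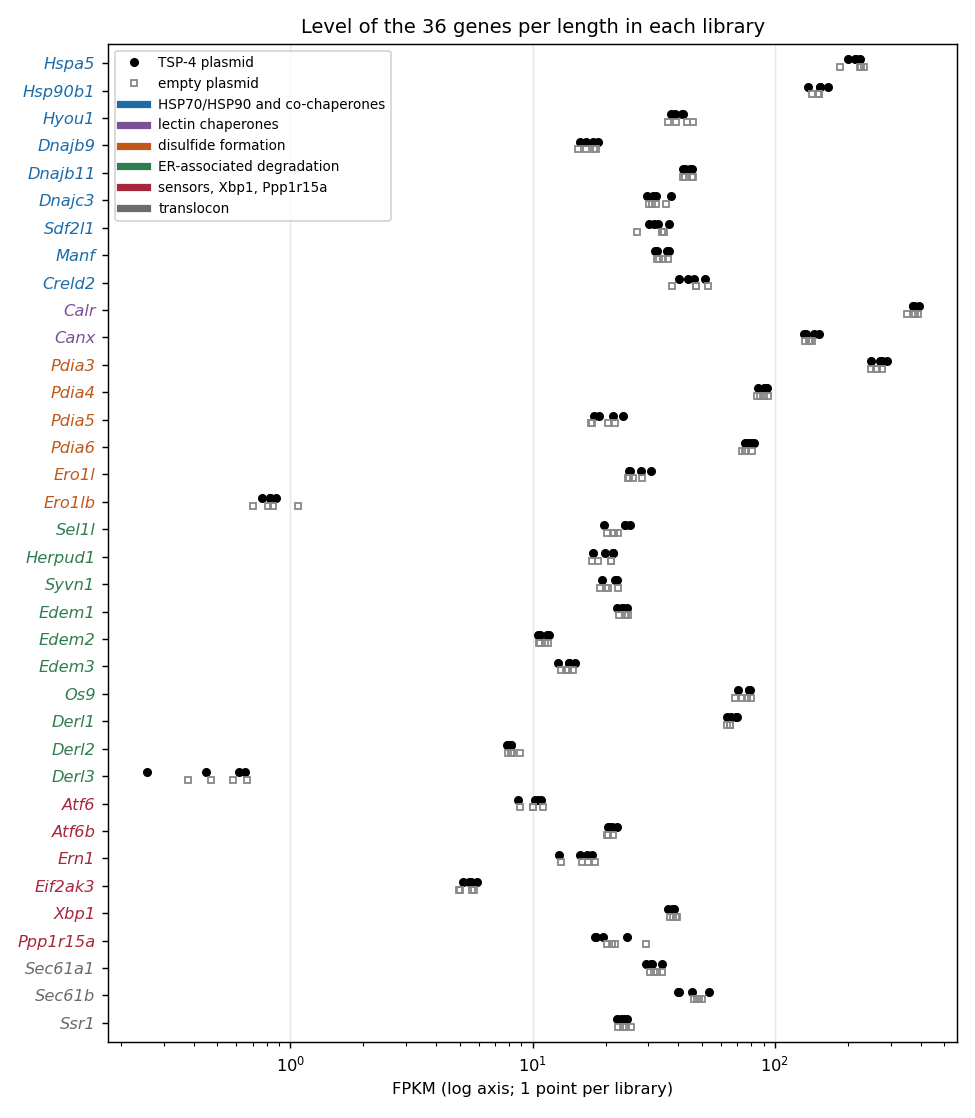
FPKM of the 36 genes in each library on a log axis, 1 point per library, black circles for the TSP-4 plasmid and grey squares for the empty plasmid, with gene names coloured by role. Black and grey points of each gene lie over each other, while the genes run from 0.507 (Derl3) to 376 FPKM (Calr) on average.

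Between the plasmids no gene of this machinery passed the test, and the intervals leave little room for a change in most of them. Of the 36 genes 0 were called higher and 0 lower by edgeR's quasi-likelihood test at an adjusted p of 0.05, where 0.00679% of all genes tested were called higher (Thbs4 alone) and 0% lower. DESeq2 and limma voom also called 0 of the 36. At an unadjusted p under 0.05 edgeR listed 0 of the 36, against 1.6% of all genes, and the adjusted p was 0.999968 or more for each of the 36. This fit has no term for the letters, by which the libraries pair in the data, so differences between letters widen its spread. With the letters as a replicate block 2 of the 36 (5.56%) and 8.12% of all genes had an unadjusted p under 0.05. The high adjusted p is therefore not evidence that a gene is unchanged. For 0 of the 36 genes were the groups free of overlap, against 1.51% of all genes (0.652% higher and 0.863% lower in the TSP-4 group). The log2 fold changes lay between -0.21 (Ppp1r15a) and 0.11 (Sel1l), with 21 above and 15 below 0 and a median of 0.00. The median of all genes tested was also -0.00.

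The intervals show how much room is left for a change. In the fit without the letters the 95% interval stayed within a rise of 25% and a fall of 20% for 33 of the 36 genes, against 47.5% of all genes. Of the 34 genes averaging 10 CPM or more it did so for 33, against 72.8% of all genes at that level. It stayed within 1.5-fold for 35 of 36 (70.5% of all genes) and for 34 of 34 at that level (92% of all genes there), and within 2-fold for 36 of 36 (88.5%). The 3 genes with wider intervals were Ero1lb and Derl3, at 849 and 156 counts over all libraries, and Ppp1r15a. The 36 genes together took 0.779 ± 0.0155% of all counts in the TSP-4 group and 0.783 ± 0.0210% in controls.

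**Figure D2:**
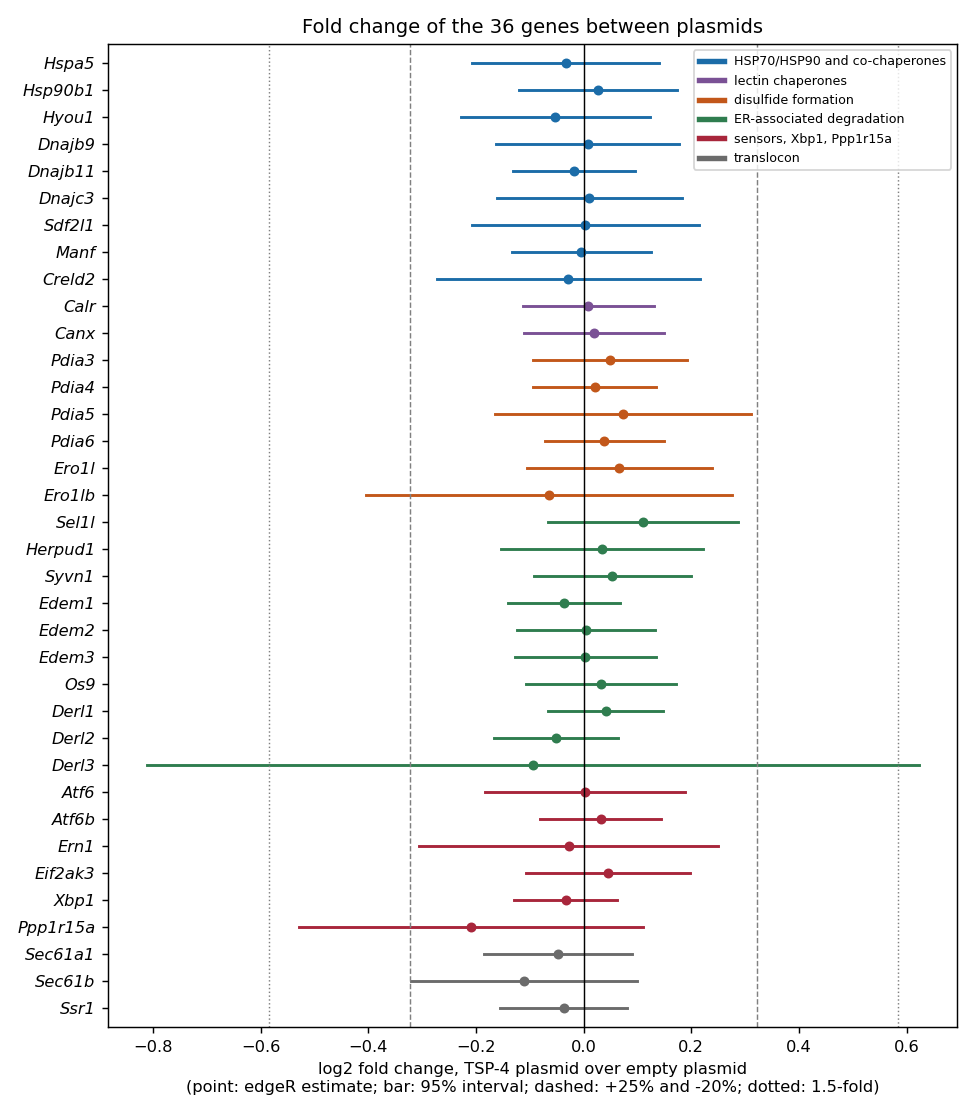
Log2 fold change of each of the 36 genes, TSP-4 plasmid over empty plasmid, as edgeR's estimate (point) with its 95% interval (bar), coloured by role, with a rise of 25% and a fall of 20% (dashed) and 1.5-fold (dotted) marked. In this fit without the letters every interval crosses 0, and 33 of 36 lie between the dashed lines. With the letters as a replicate block the intervals of Ppp1r15a (-0.30 to -0.11) and Sel1l (0.01 to 0.20) did not cross 0.

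Among the luminal chaperones and their cofactors, 9 genes in all, 4 lay above and 5 below 0 with a median of -0.00. Hspa5 stood at 908, 856, 904 and 955 CPM in TSP-4 group libraries A to D and at 950, 797, 973 and 988 CPM in the control libraries. Library B was the lowest in both groups, and the groups overlapped. Its log2 fold change was -0.03 (SE 0.08, 95% interval -0.21 to 0.14), which allows a fall of 13.4% to a rise of 10.2%. Hyou1, a large HSP70-like exchange factor for BiP, read 302, 270, 281 and 300 CPM against 331, 263, 286 and 315 CPM. It too was lowest in B of both groups, and its interval ran from -0.23 to 0.12. Hsp90b1 was at 616 ± 46.2 against 605 ± 21.0 CPM (interval -0.12 to 0.17).

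The cofactors of BiP gave similar values in both groups. Dnajb11, which encodes ERdj3, stood at 141 ± 5.18 against 143 ± 6.63 CPM. Dnajc3, which encodes the J-domain protein p58IPK, stood at 168 ± 16.1 against 167 ± 10.8 CPM. Dnajb9, which encodes ERdj4 and is known as a target of spliced XBP1, stood at 44.0 ± 3.25 against 43.7 ± 3.37 CPM. Sdf2l1, a partner of ERdj3 and a sensitive stress-induced gene, read 33.3, 35.3, 36.7 and 40.5 CPM against 37.9, 30.3, 38.9 and 38.3 CPM, and its groups overlapped between 33.3 and 38.9 CPM. Creld2 and Manf, secreted or luminal proteins that are induced in ER stress, stood at 62.3 ± 6.77 against 63.5 ± 8.31 CPM and at 121 ± 7.81 against 121 ± 4.89 CPM. The 10 genes with a full ERSE, of which 4 are among these luminal chaperones, had log2 fold changes from -0.09 to 0.05 with a median of 0.01. Apart from the listed genes, the motif search found 25 genes with a full ERSE, of which 9 passed the expression filter and 0 were called; this set was chosen after the data were seen.

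Lectin chaperones and disulfide enzymes gave 7 values above 0 and 1 below. Calr stood at 1128, 1073, 1087 and 1071 CPM in the TSP-4 group and at 1124, 1102, 1091 and 1016 CPM in controls, an interval of -0.11 to 0.13. Canx was at 661 ± 40.8 against 652 ± 13.99 CPM. Of the isomerases, Pdia3 was at 856 ± 53.3 against 828 ± 37.9 CPM, Pdia4 at 217 ± 8.25 against 214 ± 8.96 and Pdia6 at 296 ± 10.7 against 288 ± 9.71. Ero1l, the oxidase that recharges the isomerases and that also responds to hypoxia, was at 145 ± 14.1 against 138 ± 8.73 CPM, and its low-level relative Ero1lb at 5.497 ± 0.308 against 5.75 ± 1.08 CPM. Pdia5 was the 1 gene of the 36 that was higher in the TSP-4 group in 4 of 4 letters, at 59.5, 49.97, 65.6 and 52.4 CPM against 56.8, 49.4, 61.3 and 48.7 CPM. Of all genes tested 8.03% were higher in every letter. The step within a letter was small beside the difference between letters, and the log2 fold change of Pdia5 was 0.07 (interval -0.16 to 0.31).

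Genes of ER-associated degradation, which extract misfolded proteins from the ER, gave 7 values above and 3 below 0 with a median of 0.02. Sel1l, the scaffold of the ubiquitin ligase complex, had the largest positive value of the 36. It read 206, 218, 206 and 169 CPM in the TSP-4 group and 184, 194, 187 and 175 CPM in controls. The TSP-4 libraries A, B and C lay above all control libraries and D below all of them. The log2 fold change of Sel1l was 0.11 (SE 0.08, interval -0.07 to 0.29). It rested in part on single libraries, at 0.18 without TSP-4 library D and 0.07 without TSP-4 library B. Without TSP-4 library D, 3 of the 36 genes (Sel1l higher, Ppp1r15a and Sec61b lower) had an unadjusted p under 0.05, against 4.19% of all genes, and 0 were called. The ligase itself, Syvn1 (HRD1), was at 102 ± 6.42 against 98.7 ± 6.51 CPM. Herpud1, which joins this complex and carries the ERSE-II shown above, was at 47.1 ± 4.10 against 46.0 ± 3.91 CPM. The mannosidase-like Edem1 was at 152 ± 5.27 against 156 ± 4.88 CPM, and Edem2 and Edem3 each had a log2 fold change of 0.00. Derl1 and Os9 had log2 fold changes of 0.04 and 0.03, Derl2 -0.05. Derl3, with 0.513 to 1.32 CPM per library, was too low to bound (interval -0.81 to 0.62).

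The mRNAs of the sensors had intervals around 0 as well. Atf6, which encodes the sensor that TSP-4 is reported to bind, read 96.9, 81.2, 94.4 and 100.4 CPM in the TSP-4 group and 92.6, 83.1, 93.6 and 102.7 CPM in controls. Both B libraries lay below the other 6, and the groups overlapped. The log2 fold change of Atf6 was 0.00 (SE 0.08, interval -0.18 to 0.19). Its relative Atf6b was at 58.5 ± 2.48 against 57.2 ± 1.66 CPM, Eif2ak3 at 33.4 ± 1.76 against 32.3 ± 2.18 CPM and Ern1 at 129 ± 17.2 against 132 ± 17.8 CPM. Xbp1, itself a transcriptional target of ATF6, was at 122 ± 2.98 against 125 ± 3.62 CPM, and its interval ran from -0.13 to 0.06. With a coefficient of variation of 2.76% over the 8 libraries it varied least of the 36.

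Ppp1r15a, which encodes GADD34, the stress-induced subunit that directs a phosphatase to eIF2α and so reverses the PERK block on translation, had the largest difference of the 36. It read 52.8, 54.1, 57.7 and 72.4 CPM in the TSP-4 group and 59.3, 63.2, 64.9 and 86.4 CPM in controls. The value was lower in the TSP-4 group in each letter, A was the lowest and D the highest library of both groups, and the groups overlapped. For Ppp1r15a the log2 fold change came to -0.21 (SE 0.14, interval -0.53 to 0.11, unadjusted p 0.172, adjusted p 0.999968, edgeR). With the letters as a replicate block its interval was -0.30 to -0.11, which lies below 0. The unadjusted p in that edgeR fit was 0.00036 and the adjusted p 0.326, so the call did not change. With that block 2 of the 36 genes had an unadjusted p under 0.05 (Ppp1r15a lower and Sel1l higher, 5.56%), against 8.12% of all genes tested, and 0 of the 36 were called, against 0.0136% of all genes. Without control library D the log2 fold change of Ppp1r15a was -0.08, and without TSP-4 library D it was -0.32.

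**Figure D3:**
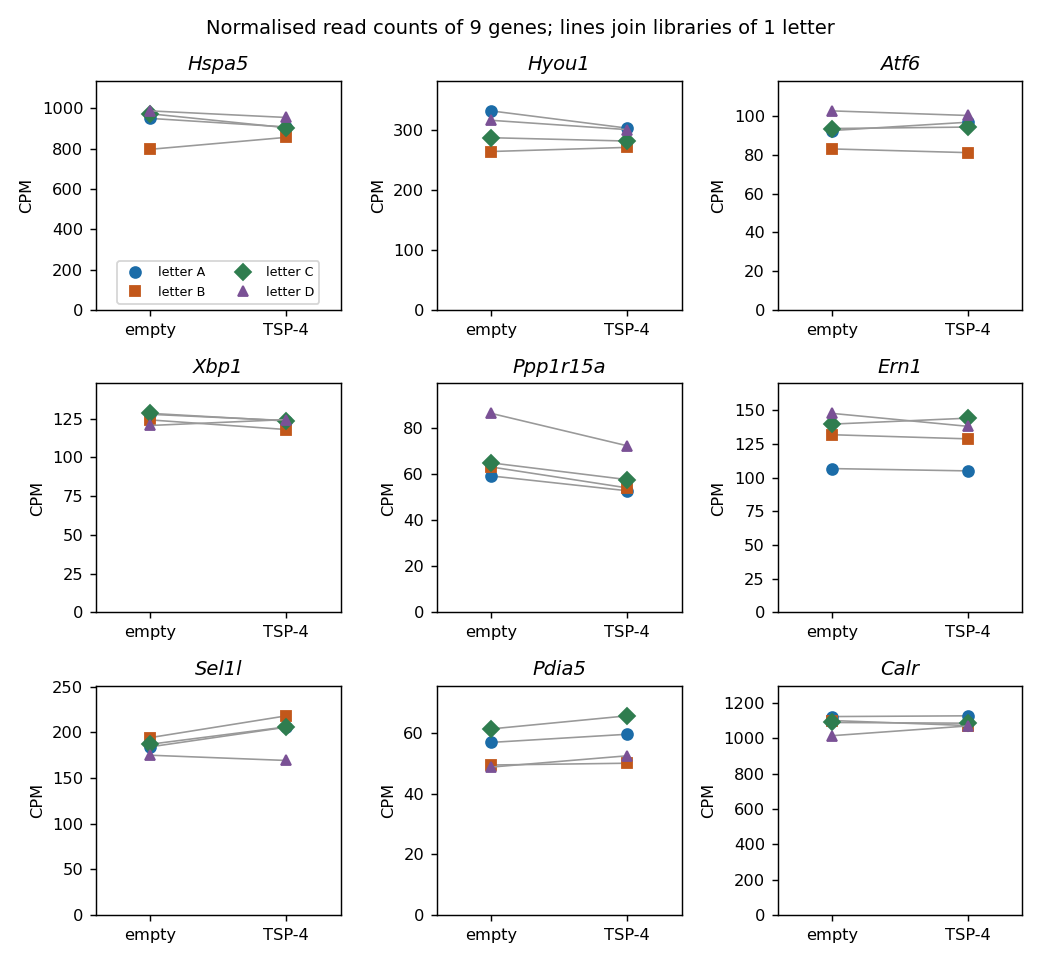
Normalised read counts (CPM, axes from 0) of 9 genes in the empty plasmid and TSP-4 group libraries, with lines joining the libraries of 1 letter. Lines are nearly flat for Xbp1 and Calr, all 4 slope down for Ppp1r15a (59.3 to 52.8 CPM in A, 86.4 to 72.4 in D), and letter B is lowest for Hspa5, Hyou1 and Atf6.

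The translocon genes, through which new proteins enter the ER, had 3 of 3 values below 0. Sec61a1, the channel, read 206, 199, 209 and 232 CPM against 219, 207, 217 and 232 CPM and was lower in 4 of 4 letters, in D by less than the rounding. Ssr1, a subunit of the associated TRAP complex, was also lower in 4 of 4 letters, at 245 ± 9.59 against 251 ± 11.6 CPM. Sec61b was at 57.1 ± 8.06 against 61.7 ± 2.49 CPM. In all, 4 of the 36 genes were lower in the TSP-4 group in 4 of 4 letters (Ppp1r15a, Derl2, Sec61a1 and Ssr1; 11.1%), against 8.04% of all genes tested.

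More of these genes differed between letters than between plasmids. In a joint F test of the letters with the plasmid as a covariate (edgeR), 10 of the 36 genes were called (27.8%), against 28.1% of all genes tested, a share close to the background. At a mean of 10 CPM or more it was 10 of 34 (29.4%), against 33.4% of all genes at that level. The 10 were Hspa5, Hyou1, Dnajc3, Pdia5, Ero1l, Sel1l, Os9, Atf6, Ern1 and Ppp1r15a. The span of letter means was widest among them for Ppp1r15a (0.50 on the log2 scale, adjusted p 9.8e-05) and Ern1 (0.43, adjusted p 0.000137), followed by Pdia5 (0.35), Atf6 (0.30) and Sel1l (0.26), and lay between 0.19 and 0.24 for the other 5 genes. The shares of the 36 and of all genes tested moved with the fit. Without the filter on low counts 16 of the 36 were called (44.4%), against 16.7% of all genes then tested. Those 30348 genes include the low-count genes that the filter removes, so these shares compare unlike levels. Without both libraries of letter B 5 of the 36 were called (13.9%), against 23.2% of all genes. It was 6 of 36 (16.7%) in each of 3 further fits, against 20.1% of all genes without both libraries of letter D, 19.8% without TSP-4 library C and 21.3% without control library C.

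The pattern over the letters repeated in both groups. The same letter held the lowest value in both groups for 25 of the 36 genes (69.4%), against 46.3% of all genes tested. That letter was B for 13 genes (36.1%), against 10.7% of all genes. These 13 were Hspa5, Hyou1, Dnajb9, Canx, Pdia6, Syvn1, Edem1, Edem2, Edem3, Derl3, Atf6, Sec61a1 and Ssr1, which hold chaperones, degradation genes, the ATF6 sensor and the translocon. It was D for 8 genes, against 11.4% of all genes, and A for 4, against 15.4%. The mean deviation of the 36 genes from their own averages was -0.06 (log2) in library B of both groups and between 0.01 and 0.03 in the other 6 libraries. The summed endothelial markers, 7 of 8 expressed and 0 of 8 at zero in all libraries, were also lowest in B, at 46.2 CPM in the TSP-4 group and 49.0 CPM in controls, against 58.1 to 79.9 CPM in the others. Single markers were divided. Emcn and Pecam1 were lowest in B of both groups, Cdh5 in B of controls alone and Vwf in B of neither. Kdr and Egfl7 were lowest in A of both groups. Tek was highest in B of both, at 5.82 CPM in the TSP-4 group and 7.78 CPM in controls. The part of endothelial cells in the letter B values was not tested. The same letter was the highest in both groups for 20 of the 36 genes (55.6%), against 47.9% of all genes. The genes are not independent of each other, and these shares carry no test. Levels also differ, as 34 of the 36 averaged 10 CPM or more, against 9324 of the 14723 genes tested. No such share was computed at a matched level.

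Ern1 followed another order. It was lowest in A, at 105 CPM in the TSP-4 group and 107 CPM in controls, and lay between 129 and 148 CPM in the other 6 libraries. The summed macrophage markers, 11 of 11 expressed, were also lowest in A, at 300.0 and 331 CPM, against 623 to 1698 CPM in the others. Their part in the Ern1 values was not tested. The sum of fibroblast markers was 15439 and 17400 CPM in A, 17515 and 18029 CPM in B and 12572 and 12906 CPM in D.

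**Figure D4:**
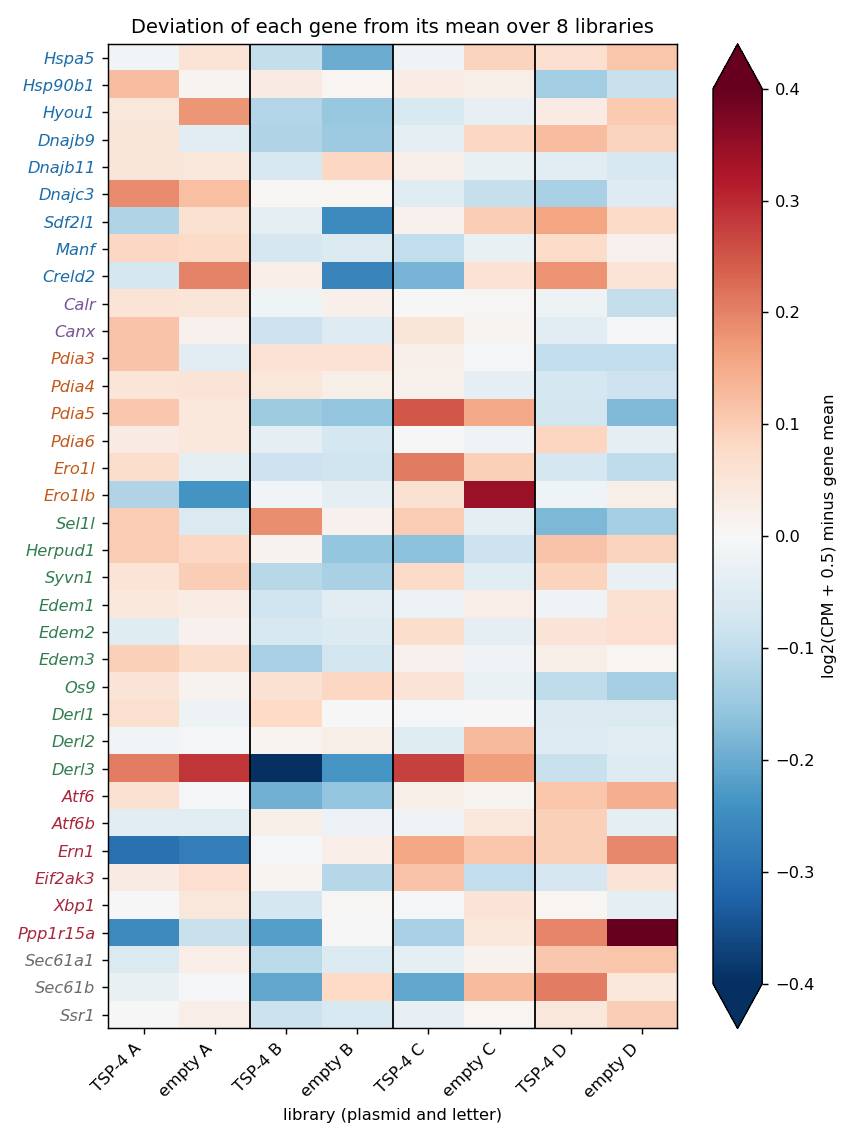
Deviation of each gene's log2(CPM + 0.5) from its mean over the 8 libraries, with libraries ordered by letter and the plasmids side by side, on a colour scale from -0.4 to 0.4. Ern1 and Ppp1r15a are low in both A libraries, and Hspa5, Hyou1 and Atf6 in both B libraries.

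The wider pathway was read from 5 further lists with 109 genes in the table, of which 108 were tested. Of these 0 were called in either direction by edgeR, DESeq2 or limma voom. In edgeR 3 of the 108 had an unadjusted p under 0.05, all lower. Of all genes tested 1.6% had such a p, 96 genes higher and 139 lower. The 24 other foldases and collagen chaperones had a median log2 fold change of 0.00 (13 above 0). Serpinh1, the collagen chaperone HSP47 and the most abundant of them, was at 2852, 2200, 2222 and 2252 CPM in the TSP-4 group and 2551, 2152, 2112 and 2178 CPM in controls, highest in letter A of both groups. Fkbp2, a prolyl isomerase, had the smallest p of this list without passing (log2 fold change -0.12), ahead of the thioredoxin-like Tmx4 (0.06). The 21 other degradation genes had a median of 0.01. The ubiquitin-conjugating enzyme Ube2j2 read 57.5, 56.0, 57.2 and 57.5 CPM against 59.2, 61.7, 61.9 and 63.1 CPM, without overlap (log2 fold change -0.11, unadjusted p 0.035, adjusted p 0.999968, edgeR). Groups were free of overlap for 1.51% of all genes tested. The deglycosylating enzyme Ngly1 (0.18) and the segregase Vcp (0.01) did not pass.

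The 30 further genes of the translocon, signal peptidase and glycan transfer had a median of -0.00. The signal recognition particle subunit Srp54a (log2 fold change -0.40, unadjusted p 0.032, adjusted p 0.999968, edgeR), which has near-identical copies in the mouse genome and is therefore uncertain, came first by p, and Tram2 (0.12) and Ddost (0.03) did not pass. The 13 tested relatives and partners of ATF6 had a median of -0.02. Creb3l4 (0.32), the NF-Y subunit Nfya (-0.13) and the ER membrane protein Tmbim6 (0.04) did not pass.

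The PERK arm and ATF4 targets had the lowest median of the 5 lists, -0.08. Of the 20 genes 4 lay above 0, against 7354 of all 14723 genes tested. In edgeR 0 were called and 1 had an unadjusted p under 0.05, against 1.6% of all genes. With the letters as a replicate block 5 of 20 had an unadjusted p under 0.05, all lower, and 0 were called. In that fit 586 of the 14723 genes were lower at this p and 610 higher, 8.12% together. In this list 9 of 20 genes were lower in the TSP-4 group in 4 of 4 letters, against 8.04% of all genes tested. In the F test of the letters 11 of the 20 were called, against 28.1% of all genes tested. The genes of the list are not independent of each other, and these shares carry no test. Shmt2, a mitochondrial enzyme of one-carbon metabolism, stood at 84.4, 83.3, 83.6 and 94.8 CPM against 102.2, 92.8, 96.7 and 99.2 CPM (log2 fold change -0.18, unadjusted p 0.013, adjusted p 0.999968, edgeR). Atf4 itself, the transcription factor of this arm, was at 146, 138, 142 and 150 CPM against 149, 153, 152 and 160 CPM (log2 fold change -0.09, interval -0.20 to 0.01). Its libraries in the TSP-4 group were lower in 4 of 4 letters and overlapped with those of the controls. Cebpb, the most abundant of the list per length, had a log2 fold change of -0.17 and was lowest in letter A of both groups. Ppp1r15a, described above and lower in each letter, belongs to the same arm but is not among these 20 genes. Eif2ak3, the PERK gene itself, had a log2 fold change of 0.05 and was higher in 2 of 4 letters. The 24 cytosolic heat shock chaperones, a separate folding system, had a median of -0.01 with 8 above 0 and 0 called.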

How the data were processed

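The 8 libraries were made from poly(A) RNA (NEBNext Ultra, per the labels). Tools listed in the submitters' processing notes are HTSeq 0.6.1, Cufflinks 2.1.1, TopHat2 2.0 and CASAVA, and the builds listed are mm10 and GRCm38.p6. Their roles, the annotation release and the strand setting were not given in the sources used here. The authors deposited raw read counts per gene and FPKM values, which equal counts per length and total times 1 constant per library.

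Counts were tested with edgeR 4.0.16 (quasi-likelihood, robust, TMM factors, default filter at a minimum count of 10, group as the only term, Benjamini-Hochberg at 0.05 over all 14723 genes) in R 4.3.3. DESeq2 1.42.0, limma 3.58.1, log2(FPKM + 0.1) and log2(FPKM + 1), other filters and factors, and omitted libraries were alternatives. The edgeR fits were also run on simulated counts with known changes, as a check of the code. Few genes differed between letters there, against 28.1% of all genes tested in these libraries. Those runs therefore do not show how the fit without the letters performs here. The members and lists were chosen with earlier results of these data known. Named genes are the 36 members, Thbs4, and in each further list the 2 with the smallest p and the 1 with the highest FPKM; further genes of the letter and promoter results were chosen after their values were seen. Libraries of the same letter deviated together (r across genes 0.508 to 0.651, 0.1 being the limit). Between different letters r ran from -0.570 to 0.323, and the highest of these also passed that limit. All 8 libraries correlated best with their own letter, so letters pair the libraries as found in the data, not the labels. The mean chi-square per gene was at least 10.3 between libraries of a group and at least 4.88 over all pairs (letter D of both groups), far above the 1 that sampling noise gives, so libraries were counted separately. A planned count of ER retrieval signals in the proteins was not run, and 5 members without a promoter entry (Hyou1, Manf, Derl1, Atf6 and Sec61a1) were not searched.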

Additional observations from a re-analysis of the deposited data

Results flagged for a closer look

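Of 108 sets of 4 libraries examined, 9 had 1 library far from the other 3, and chance alone marks about 5% of such sets. Each share below is the gap of that library to its nearest neighbour divided by the range of its group. In the TSP-4 plasmid group library B stood apart low for Xbp1 (0.86; 118 CPM against at least 124) and for the mean deviation of the 36 genes (0.871; -0.06 against at least 0.01 on the log2 scale), and library D low for Os9 (0.939; 186 CPM against at least 206). In the same group library A was high for total counts (0.897; 22530947 against at most 17681837) and for Serpinh1 (0.92; 2852 CPM against at most 2252), and library D high for Shmt2 (0.901; 94.8 CPM against at most 84.4). In the empty plasmid group library D was low for Hsp90b1 (0.864; 573 CPM against at least 613), library B low for Sdf2l1 (0.876; 30.3 CPM against at least 37.9) and library A high for Serpinh1 (0.851; 2551 CPM against at most 2178). Letter B was low in each of the sets in which it stood apart. These sets are not separate observations, since the mean deviation includes Xbp1 and Sdf2l1.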

How the results depend on the processing

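The count of the 36 genes called between plasmids was 0 in every one of the 21 alternatives, as was that of the 108 further pathway genes, and Thbs4 stayed called in each. The median log2 fold change of the 36 genes lay between -0.02 and 0.03. Of 756 pairs of gene and alternative, 63 had the other sign, in 19 genes; none of these was called in either fit, and 17 genes, among them Ppp1r15a, Sel1l, Hspa5 and Xbp1, kept 1 sign. The unadjusted p of Ppp1r15a passed 0.05 in each fit with the letters as a replicate block, and without the block only without TSP-4 plasmid library D (0.0371). All genes called rose from 1 to 2 with the replicate block in edgeR and in limma voom and to 10 with DESeq2 and the block. With the block it was 5, 4, 2 and 1 without letters A, B, C and D. The block changed no call of the 36 genes. Leaving out 1 library gave 1 call each time. Between letters, DESeq2's likelihood ratio test called 2716 genes (18.4%) instead of 4134 and 8 of the 36 (22.2%). Without a filter on low counts 16 of the 36 differed between letters instead of 10 (44.4%, against 16.7% of all genes with low-count genes included). With libraries or letters left out it was 5 to 14 (13.9% to 38.9%, all genes 18.6% to 28.6%). The ERSE-II count rose from 1 to 2 genes when the promoter window reached 50 bases past the start. Depth limits Derl3 and Ero1lb.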
